A study of Mus musculus with 32 samples.

Results

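The tibialis anterior, a mostly fast-twitch limb muscle, of Gaa-/- mice was compared with that of wild-type (WT) mice at 6 months of age. The 4 arrays labelled Gaa-/- at 6 months and the 4 labelled WT at 6 months were taken by their labels, out of 32 arrays that covered both genotypes at 1.5, 4, 6 and 9 months. All 19291 probe sets with a gene symbol, out of 20079, entered the comparison, with 1 probe set per gene. The Gaa-/- animals carry the genotype labelled GAA-KO 6neo/6neo and the controls are labelled wild type. All are on a background labelled B6/129, with 4 animals in each group and no sex given. The allele is present in every tissue of the mouse, so the muscle was measured in an animal that also lacks the enzyme elsewhere. RNA came from about 20 mg of whole muscle kept in RNAlater, and 100 ng was labelled with biotin for the array.

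Gaa encodes acid alpha-glucosidase, the enzyme that breaks down glycogen inside the lysosome. When it is missing, glycogen fills lysosomes of muscle fibres and autophagosomes accumulate, which is the muscle disease of Pompe patients. Lysosomes also sense nutrients, recycle membranes and proteins, and serve the macrophages that clear damaged fibres. The comparison asks which transcripts differ in muscle where that enzyme has been missing for 6 months of life.

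All levels are log2 values as deposited, and a difference is Gaa-/- minus WT on that scale, given ± its standard error (SE) from limma. A gene was called where its limma p, adjusted by the Benjamini-Hochberg method over all 19291 genes, was under 0.05, and it is said to have risen or fallen only then. Muscle identity was plain in all 8 arrays: the skeletal actin gene Acta1 lay at 13.56 to 13.76 and the muscle creatine kinase gene Ckm at 12.20 to 12.55. Array medians were 5.73 to 5.76 in WT and 5.76 to 5.80 in Gaa-/- (exact two-sided permutation p = 0.0571, smallest possible 0.0286). Gaa-/- replicate 3 stood somewhat apart, with the lowest correlations to its own group (Pearson's r across probe sets 0.978 to 0.982). A level under 5.66, the lowest array median of the series, is called dim here, and a fold against a dim group may understate the change. The deposited files name no scan date or batch.

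Gaa itself checked the labels. It lay at 10.65, 10.58, 10.32 and 10.47 in the 4 WT arrays and at 6.82, 6.63, 6.44 and 7.17 in the 4 Gaa-/- arrays, with a wide gap between the groups. The difference was -3.73 ± 0.13, a 13.3-fold lower level (limma adjusted p = 9.9e-20). The exons read by this probe set were not known, so the remaining signal has no reading as intact message.

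With Gaa counted, 1226 of 19291 genes were called (6.36%). Of these, 688 rose (3.57%) and 538 fell (2.79%). The change reached 2-fold in 142 of the genes that rose and 69 of those that fell, and 4-fold in 22 and 6. The remaining calls were smaller: 466 lay between 1.5-fold and 2-fold and 549 under 1.5-fold. Values of the 2 groups did not overlap in 2377 genes (12.3%), 1092 of them called. Fitting the 8 arrays of 6 months alone called 771 genes. With single arrays left out in turn, 647 of the 1226 stayed called whichever array was missing. Genes that rose had a median WT level of 6.68 and genes that fell one of 7.89, against 5.74 over all genes. Both groups were dim for 75 of the genes that rose and 61 of those that fell, and for 8936 of all 19291 genes. The counts of the gene lists below are to be set beside 3.57% higher and 2.79% lower over all genes. These lists were chosen with earlier results of these data known.

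**Figure D1:**
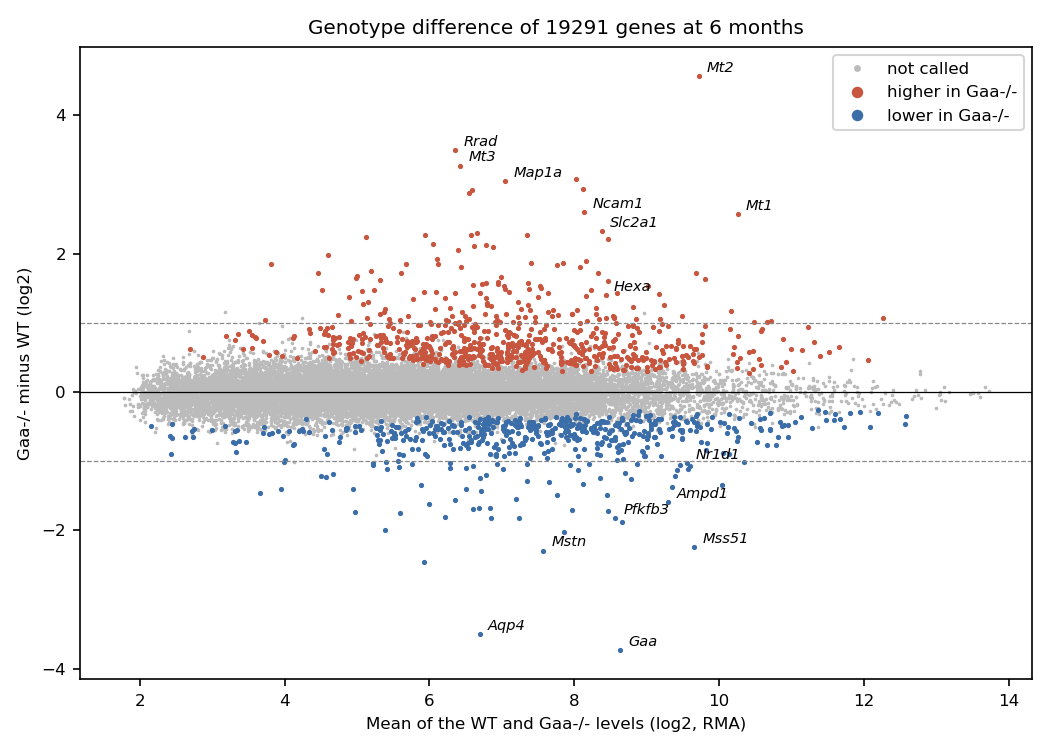
Each point is 1 of 19291 genes, placed by the mean of its WT and Gaa-/- levels (x, log2) and by the difference Gaa-/- minus WT at 6 months (y, log2). The 688 genes called higher are red and the 538 called lower are blue, the dashed lines mark a 2-fold change, and metallothionein genes lie at the top with Gaa and Aqp4 at the bottom.

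The largest rise of all was in metallothioneins, small cysteine-rich proteins that bind zinc and copper and are induced by metals, glucocorticoids and oxidants. Mt2 lay at 7.70, 7.54, 7.42 and 7.07 in WT and at 12.28, 11.10, 11.97 and 12.67 in Gaa-/-. Every Gaa-/- array was over 3 log2 units above every WT array, and the difference was 4.57 ± 0.28, a 23.8-fold rise (limma adjusted p = 3.33e-13). Mt3, best known from brain, lay at 4.29 to 5.18 in WT and 7.89 to 8.28 in Gaa-/-, a difference of 3.27 ± 0.18 from a dim level. Mt1 rose by 2.57 ± 0.19 from a WT level of 8.83 to 9.13. Of the 14 measured genes of a list of metallothioneins and zinc transporters these 3 were the only ones called, and the list's median was 0.14 against -0.0017 over all genes. The 11 others are mainly zinc transporters of the Slc30 and Slc39 families and the metal-sensing factor gene Mtf1.

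Windows before these 3 genes are shown because they differ in the number of matches to the letters to which the metal-sensing factor MTF1 binds. Windows of 250 bases before the RefSeq gene start were searched on both strands for TGCACNC or TGCGCNC, the core of the metal response element, and matches are in capitals. All 3 windows lie on the plus strand of chromosome 8 of GRCm38.p6.
Mt1 (chr8:94178839-94179088): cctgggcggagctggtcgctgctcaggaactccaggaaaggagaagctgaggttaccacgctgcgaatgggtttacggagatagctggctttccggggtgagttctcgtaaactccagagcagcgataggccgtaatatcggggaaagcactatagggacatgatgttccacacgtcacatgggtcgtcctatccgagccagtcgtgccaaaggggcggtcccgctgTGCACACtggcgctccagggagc
Mt2 (chr8:94172368-94172617): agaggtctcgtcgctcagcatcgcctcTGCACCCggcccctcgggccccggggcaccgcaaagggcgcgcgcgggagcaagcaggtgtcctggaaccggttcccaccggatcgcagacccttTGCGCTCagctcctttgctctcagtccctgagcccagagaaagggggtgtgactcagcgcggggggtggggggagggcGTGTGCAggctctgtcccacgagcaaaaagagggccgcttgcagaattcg
Mt3 (chr8:94152357-94152606): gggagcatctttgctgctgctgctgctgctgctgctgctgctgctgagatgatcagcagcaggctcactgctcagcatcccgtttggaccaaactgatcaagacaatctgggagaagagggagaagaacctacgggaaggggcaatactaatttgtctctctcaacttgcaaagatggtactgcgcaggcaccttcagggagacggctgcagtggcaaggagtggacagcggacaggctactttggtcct
The Mt2 window held 3 matches, the Mt1 window 1 and the Mt3 window 0. Among all 32851 RefSeq windows of this length 21.4% held at least 1 match and 1.26% at least 3. Among the 13 list genes with a window 7 held at least 1. List genes were counted once each, by the window with most matches, so these counts and the shares of all windows differ in unit. In the clock list, 11 of 18 genes with a window had at least 1 match (61.1%). A match is a run of letters and was not tested as a binding site. Bases outside the windows were not searched, so the counts hold for these windows and not for whole promoters.

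Rrad, Map1a, Eda2r and Klf5 were among the other large rises. Rrad, a small GTPase of the RGK family that restrains the L-type calcium channel, went from 4.35 to 4.88 in WT to 7.42 to 8.70 in Gaa-/- (3.50 ± 0.30). Map1a, which stabilises microtubules and is mostly a neuronal protein, lay at 5.80, 5.58, 5.32 and 5.37 in WT and at 8.60, 8.65, 8.47 and 8.55 in Gaa-/-. Its 4 Gaa-/- values lay closer together than its WT values, and the 8.30-fold rise had the smallest adjusted p among the rises (limma, 5.43e-16). Eda2r, a TNF-family receptor and a known p53 target, rose by 2.93 ± 0.27, from 5.96 to 7.43 in WT to 8.98 to 10.02. Klf5, a zinc-finger transcription factor, rose by 2.88 ± 0.34 from a dim level. In Klf5 the 4 Gaa-/- values were 7.72, 7.76, 7.52 and 8.94, so replicate 4 lay well above the rest.

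The 20 largest rises were taken among called genes whose WT and Gaa-/- values did not overlap, and the 20 falls likewise. The rises also held Serpinb1a, Ncam1, Slc2a1, AI506816, Rasd2, Chrnd, Plekho1, Sh2d4a, Serpina3n, Sgms2, Cers6, Ttc9 and Mybph. Their differences ran from 2.10 (Mybph, which encodes a myosin-binding protein) to 3.08 (Serpinb1a, an inhibitor of neutrophil proteases). Over the 20, limma adjusted p ran from 5.43e-16 to 2.97e-06. Gdpd3, named after its values were seen, rose by 2.92 and lies outside this rule because its groups overlapped. In 10 of the 20 the WT level was dim.

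Among the falls, Aqp4 came next to Gaa. It encodes the water channel of the fast fibre membrane, held there by the dystrophin complex. Aqp4 lay at 8.58, 7.98, 8.98 and 8.22 in WT and at 5.33, 4.79, 4.81 and 4.85 in Gaa-/-, so the 4 Gaa-/- arrays were all dim (-3.50 ± 0.21, limma adjusted p = 1.54e-13). Mstn, the gene of myostatin, a brake on muscle growth, lay at 8.73, 9.12, 8.54 and 8.50 in WT and at 6.67, 6.41, 6.46 and 6.17 in Gaa-/-. Every Gaa-/- array was over 1 log2 unit below every WT array, and the fall was 4.90-fold (-2.29 ± 0.21). Mss51, a muscle gene for a mitochondrial protein, fell by 2.24 on the log2 scale, from 10.48 to 10.98 down to 8.17 to 8.95.

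Mettl21c, Mettl21e, Mettl11b, Pfkfb3 and Amd2 were also among the 20 largest falls. Mettl21c, a lysine methyltransferase of muscle, lay at 6.60 to 7.49 in WT and at 4.32 to 5.02 in Gaa-/- (-2.46 ± 0.29). Its relative Mettl21e (-1.68 ± 0.36) and the N-terminal methyltransferase gene Mettl11b (-1.68 ± 0.16) fell as well, and Mettl21e spread widely over the Gaa-/- arrays, from 4.89 to 6.85. Pfkfb3, which makes the activator of phosphofructokinase, was tight in WT (9.40 to 9.54) and lower in every Gaa-/- array (7.16 to 7.99, -1.82 ± 0.24). Amd2, a copy of the gene for the polyamine enzyme S-adenosylmethionine decarboxylase, fell by 1.88 on the log2 scale. Amd2 shares near-identical sequence with Amd1, so its value is uncertain as to which copy was read. The others were Slc15a5, Kcnn2, Ybx2, Tlcd3b, Cyp4f39, Lypd6, Gdap1, Lrtm1, Smco1, Tmem100 and Dkk3, from -2.03 to -1.62. Over the 20 falls, limma adjusted p was at most 0.00234.

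**Figure D2:**
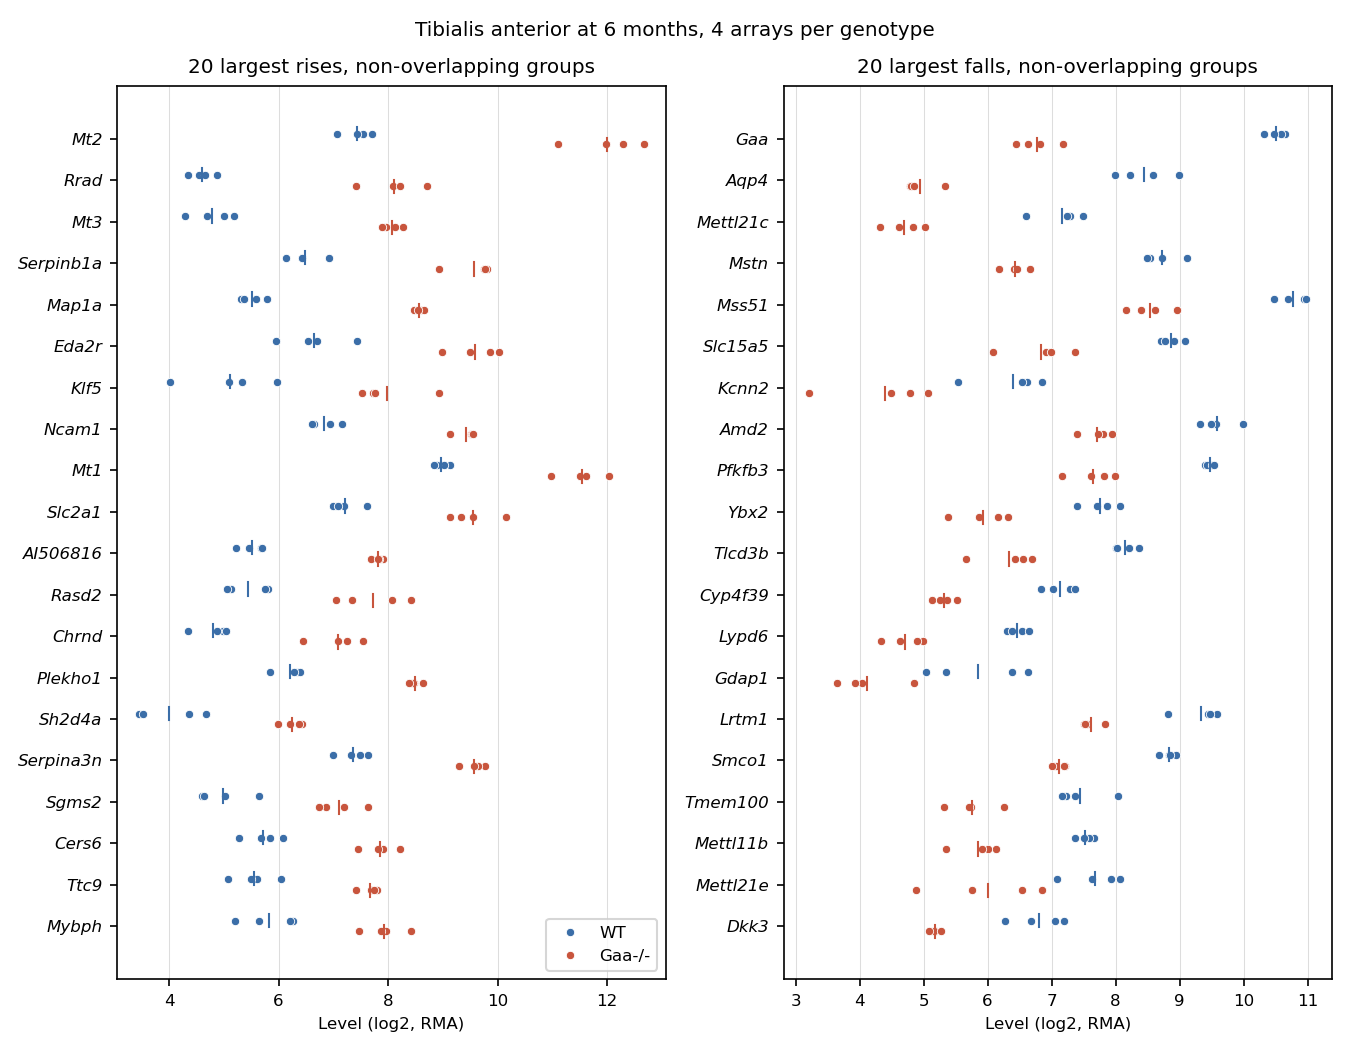
Each point is 1 array, placed by the gene's level (x, log2), for the 20 largest rises (left) and the 20 largest falls (right) at 6 months. WT is blue, Gaa-/- is red, and short vertical lines mark the mean of 4 arrays. The genes were chosen so that the groups do not overlap in any of them.

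The enzymes that make and use glycogen in the cytosol mostly fell where they were called. Of 21 measured genes of glycogen synthesis and breakdown 5 fell and 1 rose, against 2.79% and 3.57% of all genes. The list's median was -0.13. Phkg1, the catalytic subunit of the phosphorylase kinase that starts glycogen breakdown, lay at 10.94, 10.84, 10.92 and 10.81 in WT and 10.29, 9.98, 10.09 and 10.22 in Gaa-/- (-0.73 ± 0.09). Gys1, muscle glycogen synthase, fell by 0.43 on the log2 scale and Ppp1r3a, the subunit that tethers protein phosphatase to glycogen, by 0.41. Phkb (-0.55 ± 0.13) and Pgm1 (-0.50 ± 0.09) were the other members that fell. Gbe1, the branching enzyme, went the other way, from 7.37 to 7.84 in WT to 8.40 to 8.78 (0.90 ± 0.11). All 6 calls held whichever array was left out.

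Glucose entry and glycolysis showed changes in opposite directions within single gene families. Of 21 measured genes 7 fell and 2 rose, with a median of -0.14. Slc2a1, which encodes the basal glucose transporter GLUT1, lay at 7.19, 7.62, 6.996 and 7.08 in WT and at 9.33, 9.13, 9.56 and 10.15 in Gaa-/- (2.32 ± 0.19). Slc2a4, the insulin-responsive transporter GLUT4 of muscle, fell by 0.43 on the log2 scale, and Slc2a3 by 1.08. No overlap was seen in any of these 3 transporters. Hk1, a hexokinase of many tissues, rose by 0.72 ± 0.21 (limma adjusted p = 0.0337), while the muscle hexokinase gene Hk2 was not called (-0.27 ± 0.13). Fbp2, Pgam2, Tpi1 and Pfkm, enzymes of muscle glycolysis or gluconeogenesis, fell by 0.29 to 0.74. The falls numbered 4 without Gaa-/- replicate 2 or without WT replicate 3. Slc2a4 lost its call without Gaa-/- replicate 2 or 3 or WT replicate 3 or 4. Tpi1 lost it without Gaa-/- replicate 2 or WT replicate 1, 2 or 3. For Pfkm the call was lost without Gaa-/- replicate 1 or 2 or WT replicate 1, 2 or 3. One rise, that of Hk1, was lost without any 1 of 5 arrays (Gaa-/- replicate 1, 2 or 4, WT replicate 3 or 4).

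The same opposite pattern held in the enzymes of AMP. Ampd1, the AMP deaminase of fast muscle, lay at 9.97, 9.95, 10.23 and 10.20 in WT and at 8.73, 8.63, 8.08 and 8.55 in Gaa-/- (-1.59 ± 0.12). Ampd3, the form known from red cells, rose by 0.99 ± 0.18, while Ampd2 was dim in both groups and not called. Prkaa1 and Prkaa2 encode the alternative catalytic subunits of the AMP-activated kinase: Prkaa1 rose by 0.78 ± 0.13 and the more abundant form of muscle, Prkaa2, fell by 0.37 ± 0.09. Gamt, the last enzyme of creatine synthesis, rose by 1.19 ± 0.17. In the whole list of 23 purine cycle and creatine genes, 3 rose and 2 fell, and these 5 calls held without any array.

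**Figure D3:**
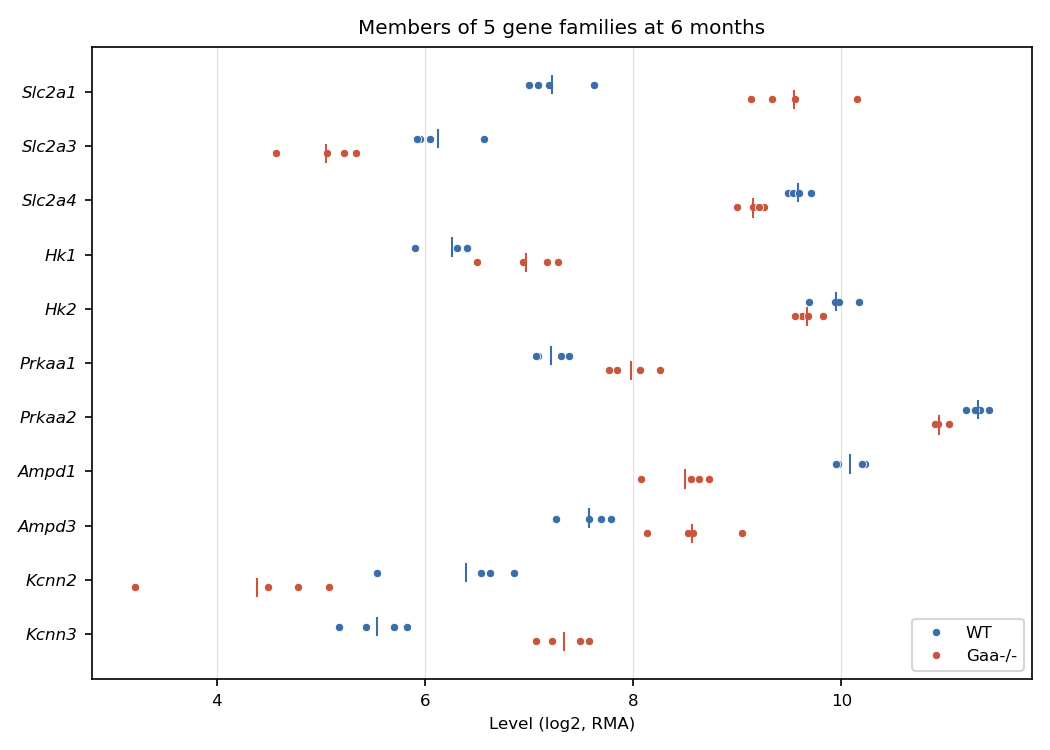
Levels (x, log2) in the 8 arrays at 6 months of glucose transporter, hexokinase, AMP-activated kinase, AMP deaminase and small-conductance potassium channel genes, with WT in blue, Gaa-/- in red and vertical lines at the mean of 4 arrays. Slc2a1, Prkaa1, Ampd3, Kcnn3 and Hk1 lie to the right in Gaa-/-, Slc2a3, Slc2a4, Prkaa2, Ampd1 and Kcnn2 to the left, and the Hk2 values overlap.

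Polyamine genes were called in both directions, with 4 of 19 lower and 2 higher. Odc1, which makes putrescine and is the first step of the pathway, fell by 0.76 ± 0.16, and Smox, which oxidises spermine, by 1.04 ± 0.16. Amd2 is given above. Arg1, an arginase, was dim in all arrays and fell by 0.60. Azin1, which protects ornithine decarboxylase from degradation, rose by 1.06 ± 0.17, from 7.86 to 8.76 in WT to 8.88 to 9.81. Sat1, the acetyltransferase that starts polyamine export, rose with overlapping groups (0.89 ± 0.27), and without Gaa-/- replicate 1 or 4 or WT replicate 1, 3 or 4 only 1 rise remained in the list.

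Apart from Gaa itself, which fell and is not in the lists, genes for lysosomal proteins rose where they were called at all. Of 35 measured hydrolases 7 rose and 0 fell, with a median of 0.22. Hexa, a subunit of the hexosaminidase that degrades gangliosides, lay at 7.69, 7.85, 7.45 and 7.95 in WT and at 9.04, 9.37, 9.10 and 9.01 in Gaa-/- (1.395 ± 0.14). The gap of the groups in Hexa was over 1 log2 unit. Lgmn, Ctss, Ctsz and Ctsl, proteases of the lysosome, rose by 0.60 to 1.0, and Arsa and Ctsa by 0.52 and 0.42. In Ctss, a protease typical of antigen-presenting cells, Gaa-/- replicate 1 reached 7.74 and replicate 3 lay at 6.23, within the WT range of 5.72 to 6.25. The count was 4 without Gaa-/- replicate 1 or WT replicate 4, and it was 9 without Gaa-/- replicate 3.

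In the lysosomal membrane 4 of 23 genes rose and 0 fell, against 3.57% and 2.79% of all genes. Lamp1, the most used marker of that membrane, lay at 10.15, 10.09, 10.12 and 10.31 in WT and at 10.74, 10.87, 10.68 and 10.76 in Gaa-/- (0.60 ± 0.10). Cd63, a tetraspanin of late endosomes, rose by 1.10 ± 0.13 with all 4 Gaa-/- arrays above WT. Laptm5 and Slc11a1, both known from macrophages, rose by 0.94 ± 0.19 and 0.47 ± 0.13. The proton pump had 3 of 17 subunits higher, against 3.57% of all genes. They were Atp6v1a (0.59 ± 0.13), Atp6v0a1 (0.44 ± 0.13) and the dim Atp6v0d2 (0.92 ± 0.29). Only Atp6v1a was called whichever array was missing, and the pump's count fell to 1 without Gaa-/- replicate 1 or 4 or WT replicate 1, 3 or 4.

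Of 44 autophagy genes 4 rose and 1 fell, against 3.57% and 2.79% of all genes, and the list's median was close to that of all genes. Sqstm1, the cargo receptor p62, had the largest change of the list. It lay at 10.24, 10.18, 9.88 and 10.23 in WT and at 10.97, 11.08, 11.14 and 11.02 in Gaa-/- (0.92 ± 0.09, limma adjusted p = 1.18e-08). Gabarap (0.38 ± 0.10), Map1lc3a (0.46 ± 0.13) and Gabarapl1 (0.46 ± 0.14), proteins of the autophagosome membrane, made up the rest of the rises, and Atg9a fell by 0.36. Without WT replicate 3 only 1 rise was called, and 2 were without WT replicate 2 or Gaa-/- replicate 4. In the machinery that controls mTORC1 on the lysosome, Rragc rose (0.65 ± 0.17) and the mTOR inhibitor gene Deptor fell (-0.82 ± 0.16), which are 2 of 28 genes and near the 6.36% of all genes. Rragc lost its call without Gaa-/- replicate 2 or 4 or WT replicate 3.

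Enzymes that build sphingolipids stood out by size more than by number. Of 29 genes 3 were higher and 1 lower, against 3.57% and 2.79% of all genes. Cers6, a ceramide synthase, lay at 5.28 to 6.08 in WT and 7.45 to 8.22 in Gaa-/- (2.13 ± 0.28). Sgms2, a sphingomyelin synthase, rose by 2.13 ± 0.24 from a dim level. B4galt5, which makes lactosylceramide, rose by 0.69 ± 0.14, whereas St3gal5, which adds the sialic acid of ganglioside GM3, fell by 0.63 ± 0.13. The number of rises was 5 without Gaa-/- replicate 3.

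Genes that muscle turns on when nerve input is lost mostly rose where they were called. Of 27 measured genes of the neuromuscular junction and the denervation response 9 rose and 2 fell, with a median of 0.17. Ncam1, an adhesion molecule spread over denervated fibres, lay at 6.64, 7.15, 6.94 and 6.61 in WT and at 9.51, 9.54, 9.13 and 9.54 in Gaa-/- (2.60 ± 0.14). Chrnd and Chrna1, subunits of the acetylcholine receptor, rose by 2.27 ± 0.19 and 1.21 ± 0.16. Runx1, a transcription factor induced by denervation, rose by 1.43 ± 0.17, from 5.47 to 6.31 in WT to 7.19 to 7.89.

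Musk, the receptor kinase that clusters acetylcholine receptors, rose by 0.86 ± 0.16, and Ache, the esterase of the synapse, by 0.87 ± 0.14. Cdkn1a, Gadd45a and Myog were also higher. Cdkn1a and Gadd45a are also in the list of p53 targets, and Myog is also in the satellite cell list. Dach2, a repressor known to fall on denervation, fell by 0.85 ± 0.23, and Sh3kbp1 by 0.68 ± 0.17. Of the 9 rises 8 held whichever array was left out. Neither fall did: 1 remained without Gaa-/- replicate 2 or WT replicate 2, and 0 without WT replicate 3.

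Satellite cell and regeneration genes had 3 of 24 called, all higher, against 3.57% higher among all genes. They were Des (0.46 ± 0.09), Myf5 (0.66 ± 0.18) and Myog (0.53 ± 0.15). Without Gaa-/- replicate 1 or 4 that count was 1, and without WT replicate 2 it was 5. WT replicate 2 was the odd array here. It had embryonic myosin Myh3 at 7.88, against 5.94 to 6.07 in the other WT arrays and 6.73 to 7.44 in Gaa-/-, and the stress-induced gene Egr1 at 9.26, against 6.26 to 6.83. The part of this array in the results was tested only by leaving it out.

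Fibre type genes moved little. Fast fibre genes had 5 of 18 lower and 0 higher: Casq1, Actn3, Pgam2, Pvalb and Myoz1, from -0.51 to -0.29. Actn3, the fast Z-disc actinin, lay at 12.74 to 12.85 in WT and 12.28 to 12.46 in Gaa-/-. The main fast myosin gene Myh4 was level (13.48 to 13.53 in WT, 13.46 to 13.55 in Gaa-/-, difference -0.01). Only Myoz2 rose among 16 slow fibre genes, with overlapping groups and a call that 5 of the 8 single-array omissions ended. The oxidative fast myosin gene Myh2 spread from 10.45 to 13.04 within WT and from 11.63 to 12.49 in Gaa-/-, so no fibre shift could be read from it. Myh8, a neonatal form, gave 13.54 to 13.61 in every array, at the height of the adult fast forms. Myosin heavy chain genes are near-identical in sequence, and values of the paralogs are uncertain.

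**Figure D4:**
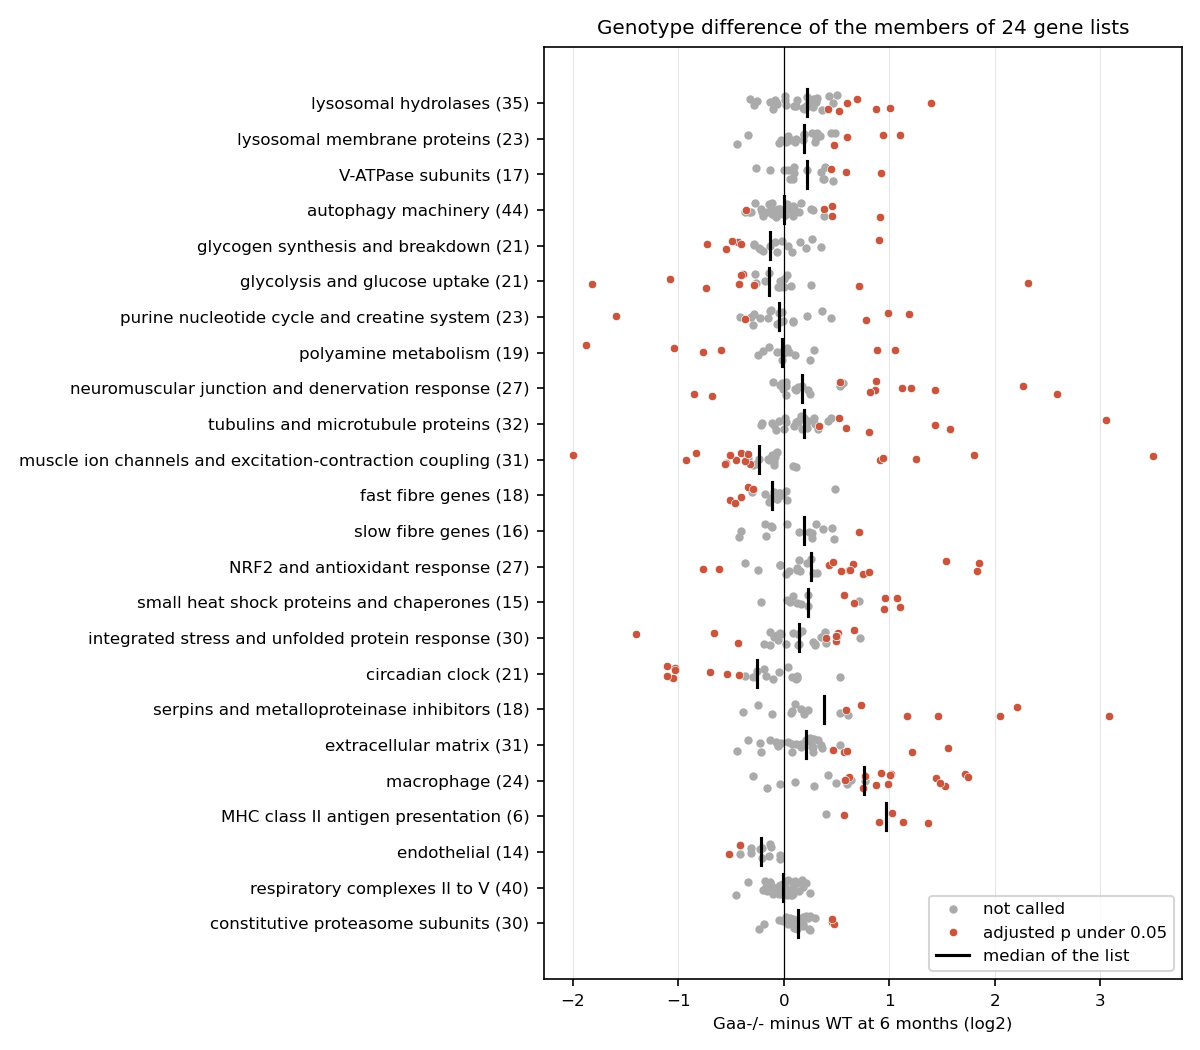
Differences Gaa-/- minus WT at 6 months (x, log2) of the members of 24 gene lists (rows, with the number measured in brackets). Red points passed the limma threshold, grey points did not, and black bars mark the list medians, which are highest for MHC class II and macrophage genes and lowest for clock and ion channel genes.

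Genes of the cytoskeleton and membrane followed. Of 32 tubulins and microtubule proteins 7 rose and 0 fell. Besides Map1a, its relative Map1b rose by 1.44 ± 0.16 and Tubb6, a tubulin raised in regenerating muscle, by 1.58 ± 0.15. Tubb6 lay at 6.37 to 6.71 in WT and 7.82 to 8.38 in Gaa-/-. Tuba1c, Vash2, Tubb2b and Map4 rose by 0.34 to 0.81. In the dystrophin complex and aquaporins, 4 of 20 rose and 2 fell: Dysf, which reseals torn membrane, rose by 0.95 ± 0.11, Nos1 by 0.62 ± 0.13, and Lama2 and Sspn by less, while Aqp4 and Sntb1 fell. Only 2 of these rises were called without Gaa-/- replicate 1 or 2 or WT replicate 3.

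Ion channels and calcium release had the largest number of falls of any list, 11 of 31, beside 5 rises (median -0.24). Jph1, which holds the calcium store against the fibre membrane, lay at 10.22, 10.26, 10.28 and 10.16 in WT and 9.39, 9.42, 9.44 and 9.33 in Gaa-/- (-0.84 ± 0.08, limma adjusted p = 3.67e-09). The 2 sets of values were tight and far apart. Lower were also Jph2, the release channel Ryr1, the store sensor Stim1, the calcium buffers Casq1 and Pvalb, the chloride channel Clcn1 (-0.55 ± 0.10) and the potassium channels Kcnc4, Kcna7, Kcnj12 and Kcnn2.

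Higher were Rrad, the calcium channel subunits Cacnb1 (0.91 ± 0.10) and Cacng1 (0.94 ± 0.12), and Sln, which restrains the calcium pump (1.25 ± 0.21). The small-conductance potassium channels changed in opposite directions. Kcnn3, long known to appear in denervated muscle, lay at 5.44, 5.17, 5.70 and 5.83 in WT and 7.07, 7.49, 7.57 and 7.22 in Gaa-/- (1.80 ± 0.16). Kcnn2 lay at 5.54, 6.85, 6.62 and 6.54 in WT and 5.07, 4.78, 4.49 and 3.21 in Gaa-/- (-1.999 ± 0.28). All 5 rises and 7 of the 11 falls held whichever array was left out.

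Growth and wasting genes were called in both directions. The ubiquitin ligase gene Trim63 (MuRF1) rose by 1.01 ± 0.17, and Eif4ebp1, a brake on translation, by 1.12 ± 0.17, while Nedd4l and Cish fell, so that 4 of 21 genes of atrophy and ubiquitin ligases were called, against 6.36% of all genes. Myostatin, BMP and IGF signalling had 2 of 45 higher, Akt1 (0.68 ± 0.11) and Id2 (0.76 ± 0.19), near the 3.57% of all genes. It had 2 lower, Mstn and the receptor gene Acvr1b (-0.53 ± 0.14), near the 2.79% of all genes. The rises numbered 1 without Gaa-/- replicate 1 or 4 and 4 without replicate 3, and the falls numbered 1 without Gaa-/- replicate 4 or WT replicate 4. Among 26 cell cycle genes Rrm1 and Aurka fell and 0 rose, against 2.79% and 3.57% of all genes.

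Antioxidant genes mostly rose where they were called. Of 27 genes of the NRF2 and antioxidant response 11 rose and 2 fell (median 0.26). Srxn1, which repairs oxidised peroxiredoxins, lay at 6.94, 7.22, 6.22 and 6.996 in WT and 8.53, 8.41, 8.83 and 8.94 in Gaa-/- (1.83 ± 0.16). Nqo1, a quinone reductase, rose by 1.53 ± 0.19 and Gsta2, a glutathione transferase, by 1.85 ± 0.33 at dim levels. The groups were apart in all 3.

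Gpx4, Txn1, Txnrd1, Gpx1, Gsr, Gclm, Ftl1 and Cat rose by 0.43 to 0.81, while Gpx3 (-0.77 ± 0.15) and Me1 (-0.61 ± 0.16) fell. Only 1 fall was called without Gaa-/- replicate 3. The antioxidant response element core, searched only as TGACNNNGC, was present in 10.2% of all RefSeq windows. In this list 6 of the 23 genes with a window had it. The windows of Srxn1 and Nqo1 held no match to these letters. The Srxn1 window held TGAGTCAGC, which has G where the searched core has C, and such variants were not counted. Bases outside the windows were not searched, so whether either gene lacks the element was not tested. Small heat shock proteins and chaperones had 6 of 15 higher, among them Hspb1 (0.96 ± 0.16), Hspb8 (0.95 ± 0.16), Hspb7 (1.07 ± 0.24) and Hsp90aa1 (1.10 ± 0.27). WT values of Hspb7 ran from 10.94 in replicate 1 up to 12.37 in replicate 4, and those of Gaa-/- from 12.63 to 12.96. The WT values of Myh2 and Myoz2 rose in the same order of replicates, and the reason was not tested.

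Of 27 p53 targets 6 rose, against 3.57% of all genes, led by Eda2r and Cdkn1a (1.12 ± 0.25), and Polk fell. The integrated stress and unfolded protein response was split, with 6 of 30 higher and 3 lower. Chac1 (-1.40 ± 0.29), Atf4 (-0.66 ± 0.15) and Atf5 (-0.44 ± 0.12), of the amino acid arm, fell, with overlapping groups for Chac1 and Atf4. Xbp1 (0.66 ± 0.13), Atf6, Canx, Pdia6 and Creld2, of the endoplasmic reticulum arm, rose by 0.40 to 0.66, as did Psat1 (0.50 ± 0.14). The rises numbered 2 without Gaa-/- replicate 1 or WT replicate 1 and 3 without Gaa-/- replicate 2 or 4 or WT replicate 3 or 4, and only Xbp1 was called in every case.

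Immediate early genes had 6 of 26 higher, including Myc (1.0 ± 0.22), Junb (0.74 ± 0.18) and Egr1 (1.80 ± 0.42). For Egr1 the groups overlapped through WT replicate 2, described above. Without that array 9 members were called. The lists of 40 genes of respiratory complexes II to V and 35 interferon response genes had 0 calls in limma, and the 26 genes of fatty acid uptake and oxidation had only Lpl, which fell (-0.47 ± 0.14) and lost its call without any 1 of the 8 arrays. At an unadjusted p under 0.05 each of these 3 lists held 4 genes. Constitutive proteasome subunits had 3 of 30 higher (Psma7, Psmd11 and Psmd6, 0.46 to 0.48), against 3.57% of all genes.

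The circadian clock list was lower or not called. Of 21 measured genes 8 fell and 0 rose, with a median of -0.25. Those that fell were the output factor genes Dbp (-1.11 ± 0.22) and Hlf (-1.05 ± 0.22) and the repressor genes Nr1d1, Nr1d2, Per3, Ciart, Bhlhe40 and Bhlhe41. Nr1d1, which encodes REV-ERB alpha, lay at 9.83, 9.86, 10.23 and 10.37 in WT and at 9.10, 9.08, 9.05 and 8.93 in Gaa-/- (-1.03 ± 0.18). All 4 Gaa-/- arrays were close together and under every WT array. The core activator genes Arntl (0.08 ± 0.17) and Clock (0.12 ± 0.11) were not called. The hour of tissue collection is not given in the labels, so genotype and hour cannot be told apart. Of the 8 falls 6 held without any array.

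Ciart, a repressor of the clock, is shown because its promoter carries the densest run of the E-box CACGTG to which the clock activators bind among these genes. Matches on both strands are in capitals in the 250 bases before its start on the minus strand of GRCm38.p6.
Ciart (chr3:95882229-95882478): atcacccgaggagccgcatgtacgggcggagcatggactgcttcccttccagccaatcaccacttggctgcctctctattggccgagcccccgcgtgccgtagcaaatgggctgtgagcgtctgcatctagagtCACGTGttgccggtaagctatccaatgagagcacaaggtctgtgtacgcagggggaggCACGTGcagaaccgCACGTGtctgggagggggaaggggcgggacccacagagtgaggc
The window held 3 matches, as did at least that many in 0.0609% of all 32851 windows, and at least 1 match was found in 6.02% of windows. Of 18 clock genes with a window 5 held at least 1. The windows of Nr1d1, Per3 and Dbp, which also fell, held 0. A link between the matches and the falls was not tested. Ciart lay at 5.58, 5.74, 6.24 and 6.32 in WT and at 4.61, 4.63, 5.06 and 5.13 in Gaa-/- (-1.11 ± 0.25).

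The antiprotease genes Serpinb1a and Serpina3n were among the largest rises given above. The list that holds them was chosen with earlier results of these data known, so its count is no test of the class. Of 18 serpins and metalloproteinase inhibitors 7 rose and 0 fell (median 0.38). Serpina3n, a secreted inhibitor known from injured muscle, lay at 7.63, 7.32, 6.99 and 7.48 in WT and 9.76, 9.64, 9.29 and 9.58 in Gaa-/- (2.21 ± 0.16). Timp1, which inhibits matrix proteases, rose by 2.06 ± 0.22, Serpinb8 by 1.47 ± 0.29 and Serpinb6a by 1.17 ± 0.12. In the matrix itself 5 of 31 genes rose: Thbs1 (1.55 ± 0.25), Lum (1.21 ± 0.25), Loxl1, Col6a3 and Bgn. Their number was 3 without Gaa-/- replicate 1 and 2 without WT replicate 1.

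Most markers of macrophages rose in the Gaa-/- muscle. Of 24 measured markers 14 rose and 0 fell, and the median was 0.76. Lyz2, the lysozyme of myeloid cells, lay at 7.49, 7.82, 7.07 and 7.51 in WT and at 9.85, 9.01, 8.52 and 9.39 in Gaa-/- (1.72 ± 0.23). Mpeg1 (1.75 ± 0.28), Ccr2 (1.48 ± 0.28) and the Fc receptor genes Fcgr3 (1.53 ± 0.18) and Fcgr2b (1.45 ± 0.21) rose as well. Ccr2 was dim in both groups, and Mpeg1 and Fcgr2b were dim in WT. Markers that were not called included Csf1r (0.50 ± 0.18) and Mrc1 (0.60 ± 0.28). Cd163 (-0.155 ± 0.17), Lyve1 (-0.29 ± 0.21) and Fcgr1 (-0.03 ± 0.13) were lower on average and not called. The mean level over the 24 markers was 5.45 to 5.63 in WT and 6.87, 6.20, 5.78 and 6.28 in Gaa-/- replicates 1 to 4. Replicate 1 was the highest Gaa-/- array for 23 of the 24 markers and replicate 3 the lowest for 19. In whole muscle, more cells of a type and more RNA per cell cannot be told apart.

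MHC class II genes, which present antigen, had 5 of 6 higher (median 0.97), with H2-Eb1 at 6.55 to 7.21 in WT and 8.99, 8.03, 7.73 and 8.01 in Gaa-/-. Complement genes had 5 of 17 higher, C1qa, C1qb, C3ar1, Itgam and Itgb2, and 3 without Gaa-/- replicate 1 or WT replicate 3. C1qa and C1qb are also in the macrophage list. The macrophage count was 10 without Gaa-/- replicate 1 and 17 without replicate 3. Several lysosomal genes that rose (Ctss, Lgmn, Ctsz, Laptm5, Slc11a1) are known from macrophages. Of the 35 hydrolases 21 were highest in the same replicate 1 and 21 lowest in the same replicate 3, and the part of macrophages in the lysosomal rises was not tested.

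Markers of cells other than macrophages, antigen-presenting cells and muscle fibres gave 0 to 2 calls a list, where 6.36% of all genes were called. Only Cd3e rose among 15 T and NK cell markers, Retnlg among 11 neutrophil markers and Lum among 12 fibroblast markers, and 0 of 8 B cell, 7 mast cell, 4 blood and 8 tendon markers were called in limma. Gaa-/- replicate 1 also had the highest mean level of neutrophil (6.09, against 4.49 to 4.70 in the other Gaa-/- arrays), tendon (7.43 against 6.10 to 6.23) and adipocyte markers (6.94 against 5.85 to 6.32). Des (0.46 ± 0.09) and Cspg4 (1.01 ± 0.13) rose among 12 smooth muscle and pericyte markers and Egr2 (0.64 ± 0.13) among 10 Schwann cell markers. These 3 calls held whichever array was left out. Des is also in the satellite cell list and Egr2 in the immediate early list. The mean level over the 10 Schwann cell markers differed by -0.008, with overlapping groups, and that over the 12 smooth muscle and pericyte markers by 0.097, also with overlap. Lpl fell among 9 adipocyte markers (-0.47 ± 0.14), a call that was lost whichever array was left out. Cd3e lost its call without Gaa-/- replicate 1 or 3 or WT replicate 2, and Retnlg without Gaa-/- replicate 1 or 4 or WT replicate 1, 2 or 4. All 14 endothelial markers were lower on average in Gaa-/-, though only Flt1 (-0.52 ± 0.11) and Cdh5 (-0.41 ± 0.09) were called. Their list means were 7.52 to 7.62 in WT and 7.28 to 7.35 in Gaa-/-. Among 16 muscle fibre markers Tcap (-1.01 ± 0.14), Actn3 and Ryr1 fell.

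Calls were also counted among the neighbours of Gaa on its chromosome. Of the 100 tested genes nearest Gaa in RefSeq order, 50 on each side, 8 were called (8%), against 6.36% of all genes. They were Septin9, Card14, Chmp6, Hgs, Slc25a10, Pcyt2, Cbr2 and Slc16a3, with 5 higher and 3 lower. Among the nearest 50 it was 3 (6%) and among the nearest 20 it was 2 (10%), both higher. The share called on whole chromosomes ran from 4.58% (X) to 8.83% (chromosome 10).

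The 6-month difference was then set against those at the other ages, whose arrays are separate. Of the 1226 genes called at 6 months, 389 were also called with the same sign at 1.5 months, 688 at 4 months and 743 at 9 months. The totals called at those ages were 700 (3.63%), 1099 (5.70%) and 2299 (11.9%) of 19291. At all 4 ages 294 were called, and 310 were called at 6 months alone. A call at 6 months alone did not amount to a difference from the other ages: 0 of the 310 were called when the 6-month difference was tested against the mean of the other 3.

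That test called 0 of 19291 genes in limma (0%), with 1284 at an unadjusted p under 0.05 (6.66%). Against 4 months alone 0 were called (923 unadjusted), and against 9 months alone 0 (2083 unadjusted). The test against 9 months called 10 genes with dim genes left out and 12 with a trended, robust limma fit, and the test against all other ages called 1, the dim H2-M9 (adjusted p = 0.0257 in limma), without Gaa-/- replicate 1. The genes with the smallest p against the mean of the other ages were Spon2 and Dalrd3 above and Bhlhe41 and Per3 below, at adjusted p of 0.37 or more. Per3 fell by 1.03 at 6 months and was not called at 1.5 (-0.14), 4 (-0.39) or 9 months (0.03). Of the 20 largest rises 19 were called with the same sign at 1.5 months, and 20 at 4 and at 9 months. Of the 20 falls 12 were called at 1.5 months and 20 at each of 4 and 9 months.

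Genes were called only against 1.5 months. The genotype difference at 6 months differed from that at 1.5 months in 18 genes (0.0933%; limma, adjusted over all genes), a comparison added after the data had been seen. It was more positive at 6 months in 7 (0.0363%) and more negative in 11 (0.0570%). The count was 10 without WT replicate 3, 11 without Gaa-/- replicate 2 or 4, 28 without WT replicate 4 and 42 with dim genes left out. Slc15a5, a proton-coupled transporter of the peptide family, differed most in p: its genotype difference was -0.12 at 1.5 months, -1.70 at 4, -2.03 at 6 and -2.47 at 9 months. Aqp4 went from -1.75 to -3.50, Mss51 from -0.68 to -2.24 and Dkk3, a secreted Wnt modulator, from -0.21 to -1.62. Serpina3n went from 0.65 to 2.21 and Mybph from 0.52 to 2.10. Both potassium channel and polyamine genes are among the 18, Kcnn3 (0.69 to 1.80) and Odc1 (0.33 to -0.76).

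**Figure D5:**
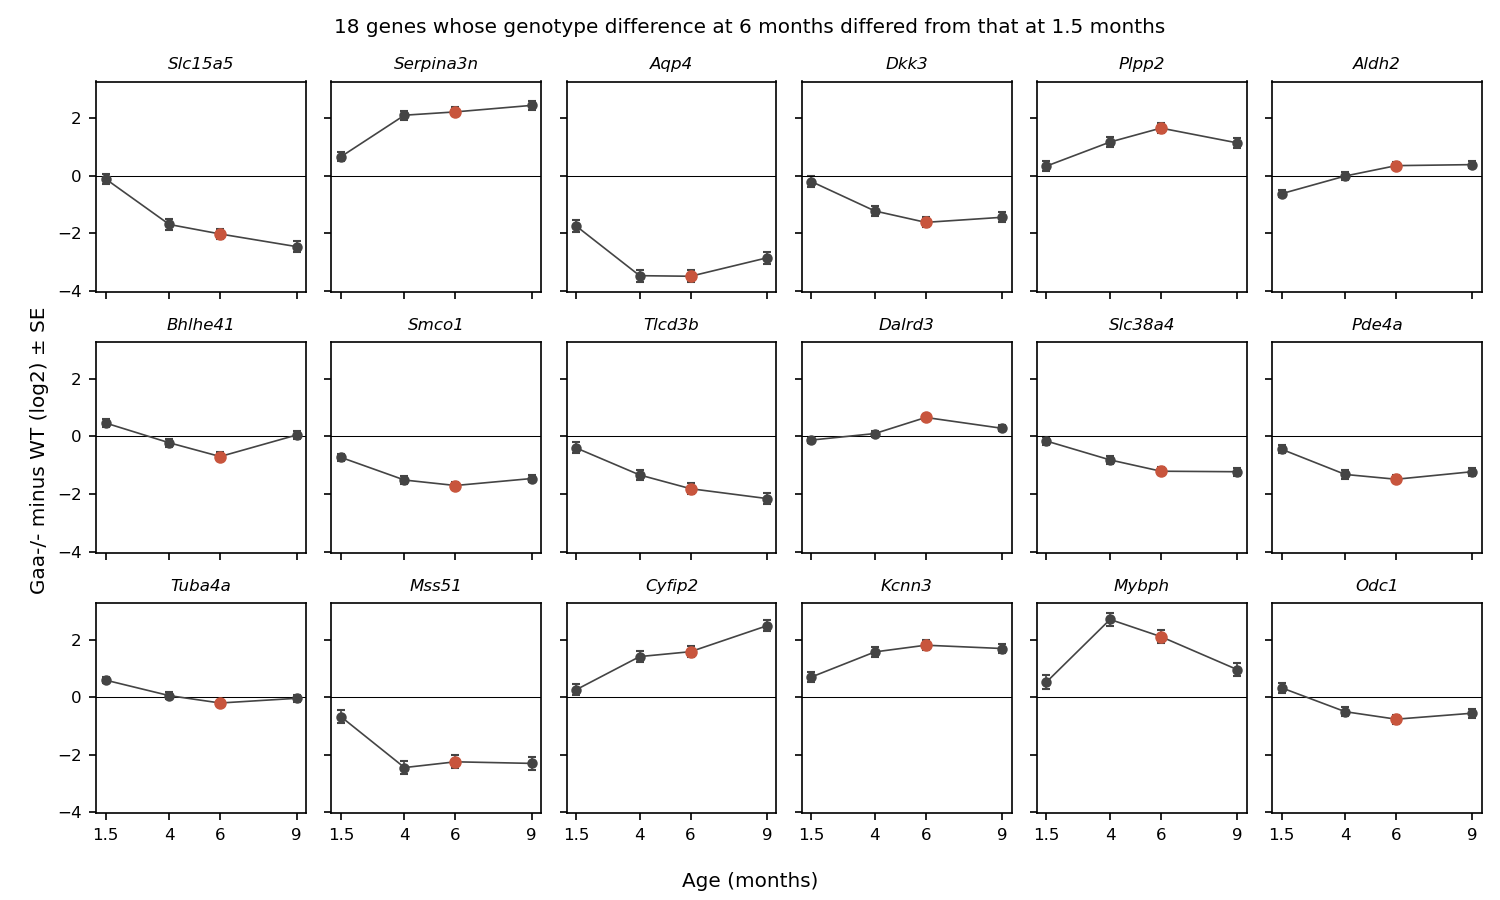
Genotype difference Gaa-/- minus WT (y, log2, ± SE from limma) at 1.5, 4, 6 and 9 months (x) for the 18 genes whose difference at 6 months (red point) differed from that at 1.5 months. In 16 of the 18 the 6-month value lies farther from 0 than the 1.5-month value, and Aldh2, Bhlhe41, Dalrd3, Tuba4a and Odc1 change sign between those ages.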

How the data were processed

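Gene expression in tibialis anterior was measured on 1-colour Affymetrix arrays, 4 for each genotype and age, and samples were grouped by their labels. The deposited values are log2 levels, 1 for each probe set on each array. Per the submitters' processing notes they were made with RMA and the R package affy. Versions and a genome build were not given in the sources used here. RMA normalizes quantiles across arrays, so a change shared by most genes would not show. Of 20079 probe sets, 788 had no gene symbol in the platform table and were left out. For 5 probe sets, all values were identical to those of another probe set. Symbols were matched to RefSeq by Entrez number for all 19291 genes, with assembly GRCm38.p6 for promoters and gene order.

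R 4.3.3 and limma 3.58.1 were used. The 32 arrays entered 1 model with a mean for each of 8 groups, which share an estimate of the spread (24 residual and 6.93 prior degrees of freedom), followed by contrasts and eBayes. Tests were two-sided and adjusted over 19291 genes, with a threshold of 0.05, and no filter was set on dim genes. The labels call the arrays biological replicates and the design text calls them animals. Arrays carry no read depth, and their number limits the precision. On simulated data with 19291 genes and independent noise, this comparison recovered 28% of genes changed by 0.5 log2 units. It recovered 90% of those changed by 1 and 100% of those changed by 2 or 3. The simulation gave 169 calls, 10 of them false, against 1226 calls in the real data. With fewer genes changed than called here, its recovery need not hold for these data.

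Gene lists numbered 48 (34 pathways and processes, 14 cell type markers), with 1033 of 1129 members measured, 3 of them through an older symbol. They are described by counts and medians without a test of the list. Members, lists and tests were chosen with earlier results of these data known. The text names Gaa, the 20 largest rises and 20 largest falls among called genes whose groups did not overlap, the genes that differed most from the other ages, and list members that were called. Alternatives were array centring, a second quantile normalization, the array SD as a covariate, leaving out genes dim in both groups, array weights, a trended robust fit, the replicate number as a block, the 8 arrays alone, and leaving out each array. Replicate numbers did not pair the samples (correlation of deviations of same-numbered arrays -0.03 to 0.02).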

Additional observations from a re-analysis of the deposited data

Results flagged for a closer look

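6 values that stood alone in their group of 4 arrays are given here out of 84 groups of values checked, of which chance gives about 1 in 20. Serpinb1a lay at 8.93 in Gaa-/- replicate 3, against 9.74 to 9.80 in the other Gaa-/- arrays. Ncam1 lay at 9.13 in the same array, against 9.51 to 9.54, and Lrtm1 at 7.84, against 7.51 to 7.56. The median of that array was 5.80, against 5.76 to 5.77. In each of these 3 genes it was the Gaa-/- array nearest to WT, and each gene stayed called without it. Klf5 lay at 8.94 in Gaa-/- replicate 4, against 7.52 to 7.76. Aqp4 lay at 5.33 in Gaa-/- replicate 1, against 4.79 to 4.85, and all 4 values are dim.

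In 18 genes the genotype difference at 6 months differed from that at 1.5 months by limma's test of the difference, at adjusted p of 0.000603 to 0.0492. The difference was more negative at 6 months in Slc15a5 (by -1.91), Aqp4 (-1.75), Mss51 (-1.57), Dkk3 (-1.42), Tlcd3b (-1.42), Bhlhe41 (-1.16), Odc1 (-1.09), Slc38a4 (-1.05), Pde4a (-1.04), Smco1 (-0.98) and Tuba4a (-0.79). It was more positive in Mybph (by 1.58), Serpina3n (1.56), Cyfip2 (1.32), Plpp2 (1.32), Kcnn3 (1.11), Aldh2 (0.97) and Dalrd3 (0.79). Each of the 4 ages has its own arrays, and litter or day of collection is not given in the labels, so age and batch of collection cannot be told apart.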

How the results depend on the processing

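The number of genes called at 6 months stayed within 1.5 times of 1226 under 7 alternatives that kept all arrays, from 1058 with the replicate number as a block to 1617 with the array SD as a covariate. Leaving out single arrays gave 926 to 1137 (497 to 699 higher and 409 to 439 lower). With the 8 arrays of 6 months alone, which leaves fewer degrees of freedom, 771 were called (447 higher, 324 lower), and with the replicate block as well 510 (314 higher, 196 lower). In none of these fits did a called gene change sign. The share of calls that were higher ran from 48.4% with centred arrays to 61.6%, against 56.1%. The 40 largest changes kept their calls in all but 1 case: Gdap1 had a limma adjusted p of 0.0627 with the 8 arrays alone and the replicate block.

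Against the mean of the other ages, 0 to 1 genes were called when single arrays were left out. Against 9 months, 10 were called with dim genes left out, 12 with the trended robust fit and 1 with the replicate block. Against 1.5 months, where 18 were called, the counts were 33 with the array SD as a covariate, 42 with dim genes left out, 37 with array weights, 33 with the trended robust fit, 10 with the replicate block, and 10 to 28 without single arrays. The cause of these shifts was not tested.

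Arrays give no background level, so folds of dim genes are limited by signal, and whole-muscle RNA does not separate cell types. Sex, litter and hour of collection are not given in the labels.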
